A study of Mus musculus with 8 samples.

Results

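The genes of vitamin D action and calcium absorption were followed in RNA sequencing of mouse intestinal epithelial cells. The set holds 10 of the 54139 genes in the deposited tables: S100g, Trpv6, Trpv5, Atp2b1, Atp2b4, Vdr, Cyp24a1, Calb1, Slc34a2 and Casr. Members were taken by gene symbol, and the set was selected on the measured expression of S100g, which was higher in the knockout libraries. The difference of S100g between genotypes is therefore given as a description with no test. The study has 4 libraries labelled WT, whose genotype is Villin-Cre, and 4 labelled cKO, whose genotype is Rictor Flox with Villin-Cre. Villin-Cre drives Cre recombinase from the promoter of a brush border gene, so both groups carry the recombinase in the gut epithelium. Rictor is the defining subunit of mTOR complex 2, a kinase. The sources used here do not give the strain, sex, age, diet or gut segment of the mice, nor do they say that each library is a separate mouse. The p-values then measure the spread between these libraries, which may be technical in part.

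Calcium crosses the absorptive enterocyte in 3 steps: entry from the lumen through a channel, transfer through the cytosol on a binding protein, and extrusion at the basolateral side by a pump. The active vitamin D hormone binds the nuclear receptor Vdr, which pairs with a retinoid X receptor and raises transcription of genes for all of these steps. The pathway is known to be strongest in the duodenum. The same hormone induces Cyp24a1, the enzyme that inactivates it.

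Library totals ran from 15982538 to 18708335 counts in WT and from 15110451 to 18351748 in cKO. Rictor itself was at 41.7 to 57.3 CPM in WT and 20.8 to 40.6 CPM in cKO, where CPM is the read count of a gene scaled to a common library total with edgeR's TMM factors. The groups did not overlap, which held for 3.21% of all genes tested. The edgeR log2 fold change was -0.55 ± 0.20 (SE; adjusted p = 0.921, and 0.0190 unadjusted). An exact two-sided permutation test on log2(CPM + 0.1) gave p = 0.0286, the smallest that 4 against 4 can give. Which exons were deleted is not stated in the labels, and the counts cover the whole gene. Among the 8 libraries, cKO library 3 lay farthest from the others (median root-mean-square difference of 0.663 in log2 CPM, against 0.497 to 0.598), followed by WT library 3 at 0.598. Results are therefore also given without both. All 16 enterocyte markers were measured, and T cell markers summed to between 162 and 681 CPM. Fibroblast and muscle markers were low, with sums of 2.87 to 3.77 CPM in WT and 4.03 to 4.83 CPM in cKO. These sums did not overlap between groups. Of the 11 markers 2 passed the filter on low counts, 1 with a higher and 1 with a lower estimate, so no difference is read from the sums. The ileal bile acid genes Fabp6 and Slc10a2 did not exceed 4.48 and 2.41 CPM, the colonic genes Car1 and Hoxb13 had 0 counts, and Gata4, a factor of the proximal small intestine, was at 209 to 321 CPM. Other markers of the same lists went the other way. Mep1b of the distal list was at 250 to 711 CPM and Muc3 of the large intestine list at 156 to 680 CPM. Pdx1 of the proximal list was at 4.37 to 13.5 CPM, so no gut segment is read from these genes.

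S100g and Trpv6 were the members whose highest values fell in the same 3 cKO libraries, and the 250 bases before their annotated starts are shown for that reason. Capitals mark AGGTCA on either strand, the hexamer that many nuclear receptors bind, Vdr among them. Both sequences are from RefSeq on GRCm38.p6, read 5′ to 3′ on the minus strand of the gene, S100g at chrX:162964600-162964849 and Trpv6 at chr6:41636406-41636655.
S100g: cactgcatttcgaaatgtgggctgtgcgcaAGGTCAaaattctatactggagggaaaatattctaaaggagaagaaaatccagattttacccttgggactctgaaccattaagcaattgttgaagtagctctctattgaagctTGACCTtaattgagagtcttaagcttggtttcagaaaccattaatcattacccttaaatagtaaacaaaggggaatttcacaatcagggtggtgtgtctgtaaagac
Trpv6: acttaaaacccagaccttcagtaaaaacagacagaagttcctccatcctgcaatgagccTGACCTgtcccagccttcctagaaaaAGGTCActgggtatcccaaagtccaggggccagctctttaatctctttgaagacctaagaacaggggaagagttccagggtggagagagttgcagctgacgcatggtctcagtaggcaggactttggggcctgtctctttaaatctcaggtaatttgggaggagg
Each window held 2 matches, 1 on each strand. In S100g they began 220 and 107 bases before the start, and in Trpv6 165 and 191 bases before it. Of 32851 start windows of this length, 4607 (14.02%) held at least 1 match and 1.36% held 2 or more. The other 7 windows of members, from 6 genes, held none, and 2 members had no window in the table. The RefSeq starts of S100g and Trpv6 are those of the deposited table, while the starts of these 7 windows differ from it, so the windows with and without matches are not placed alike. The related hexamer GGTTCA occurred once, in S100g, and in 8.85% of all windows. The direct repeat of AGGTCA with 3 bases between its copies, a form that the receptor pair binds, was in none of the members' windows and in 0.00609% of all. A match is a description of the letters and not a measured binding site.

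Levels between genes were compared as FPKM, which is scaled by gene length. Vdr was the most abundant member, at 111 ± 16.8 FPKM over the 8 libraries (SD), with a mean above that of 98.4% of the genes with any count. S100g followed at 73.9 ± 55.8 FPKM. Vdr exceeded S100g in 7 of 8 libraries, but their ranges overlapped, from 86.3 to 133 FPKM for Vdr and from 24.6 to 181 FPKM for S100g. Atp2b1 was next at 9.36 ± 1.36 FPKM, below S100g in all 8 libraries. Slc34a2, at 5.96 ± 4.14 FPKM, lay below Atp2b1 in 7 libraries with overlapping ranges. Trpv6 (0.204 ± 0.231 FPKM) and Atp2b4 (0.199 ± 0.0696 FPKM) were not separable in level. Casr was at 0.0717 ± 0.0228 FPKM. Trpv5, Cyp24a1 and Calb1 were at or near 0, with at most 2 reads in any library.

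**Figure D1:**
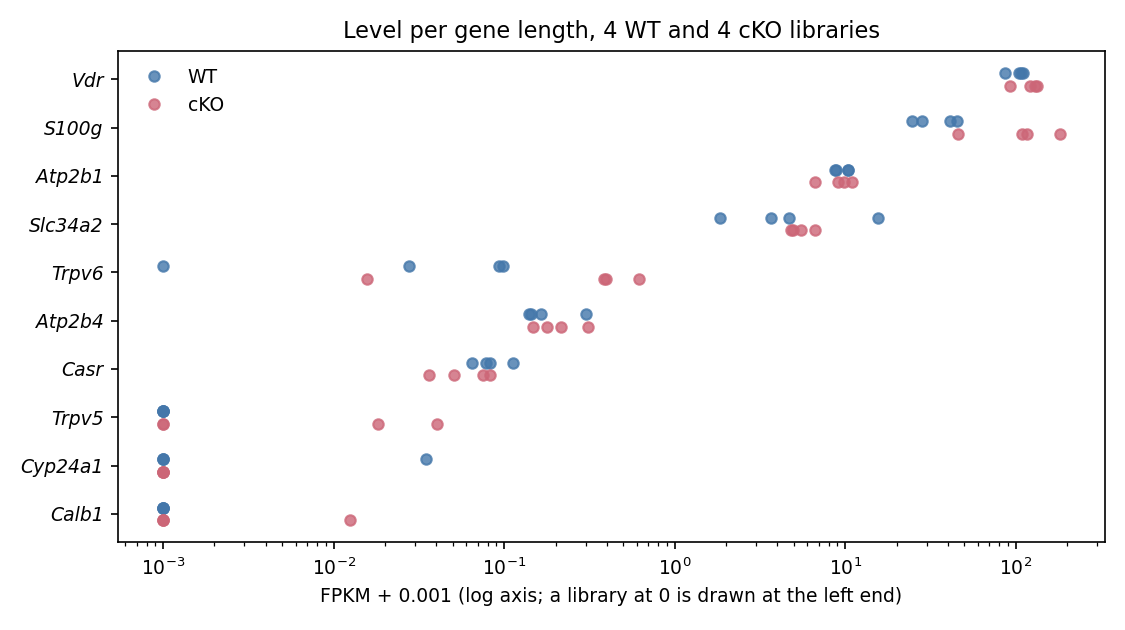
FPKM of each member (log axis, 0.001 added) in 4 WT and 4 cKO libraries, 1 point per library, ordered by the mean over 8 libraries. Vdr and S100g lie highest, and in S100g the highest library (181 FPKM, cKO) stands above the lowest (24.6 FPKM, WT).

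The filter on low counts kept 14701 genes and 5 of the 10 members: Vdr, S100g, Atp2b1, Atp2b4 and Slc34a2. Trpv6, Trpv5, Cyp24a1, Calb1 and Casr did not pass it. Among the 4 that passed other than S100g, 0 passed the adjusted threshold of edgeR, and 0 had an unadjusted p under 0.05 (DESeq2 also called 0). Across all genes tested 0.0136% were called and 3.90% had an unadjusted p under 0.05. In whole-library RNA, fewer cells of a type and less RNA per cell cannot be told apart, and this holds for each value that follows.

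S100g encodes the small intestinal calbindin, the EF-hand protein that buffers and carries calcium through the enterocyte (ENSMUSG00000040808, chromosome X, 162961992 to 162964599, minus strand, GRCm38, protein coding, with 3 exons). Its CPM in WT libraries 1 to 4 was 13.6, 20.0, 11.9 and 22.0, and in the cKO libraries, in the same order, 88.3, 22.3, 56.1 and 52.8. Libraries 1, 3 and 4 of cKO were high, while cKO library 2 lay at the top of the WT range. The ratio of cKO library 2 to WT library 4 was 1.01, with a 95% counting interval of 0.876 to 1.18, so these libraries were not distinguishable at this depth. Means went from 16.9 ± 4.87 CPM across WT to 54.9 ± 27.0 CPM across cKO (SD over 4 libraries each), a log2 fold change of 1.70 ± 0.39 (SE, edgeR). Without both libraries 3 it was 1.56 ± 0.52, and without cKO library 1 it was 1.37. S100g was the 1 member among the 5 that passed the filter whose groups did not overlap, which held for 3.21% of all genes tested. The set was chosen for this difference, so nothing is read from that count. The gene overlaps Ctps2, an enzyme of nucleotide synthesis on the opposite strand, but the 480 exonic bases of S100g share 0 bases with its exons. Ctps2 varied little, from 24.6 to 28.1 CPM.

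**Figure D2:**
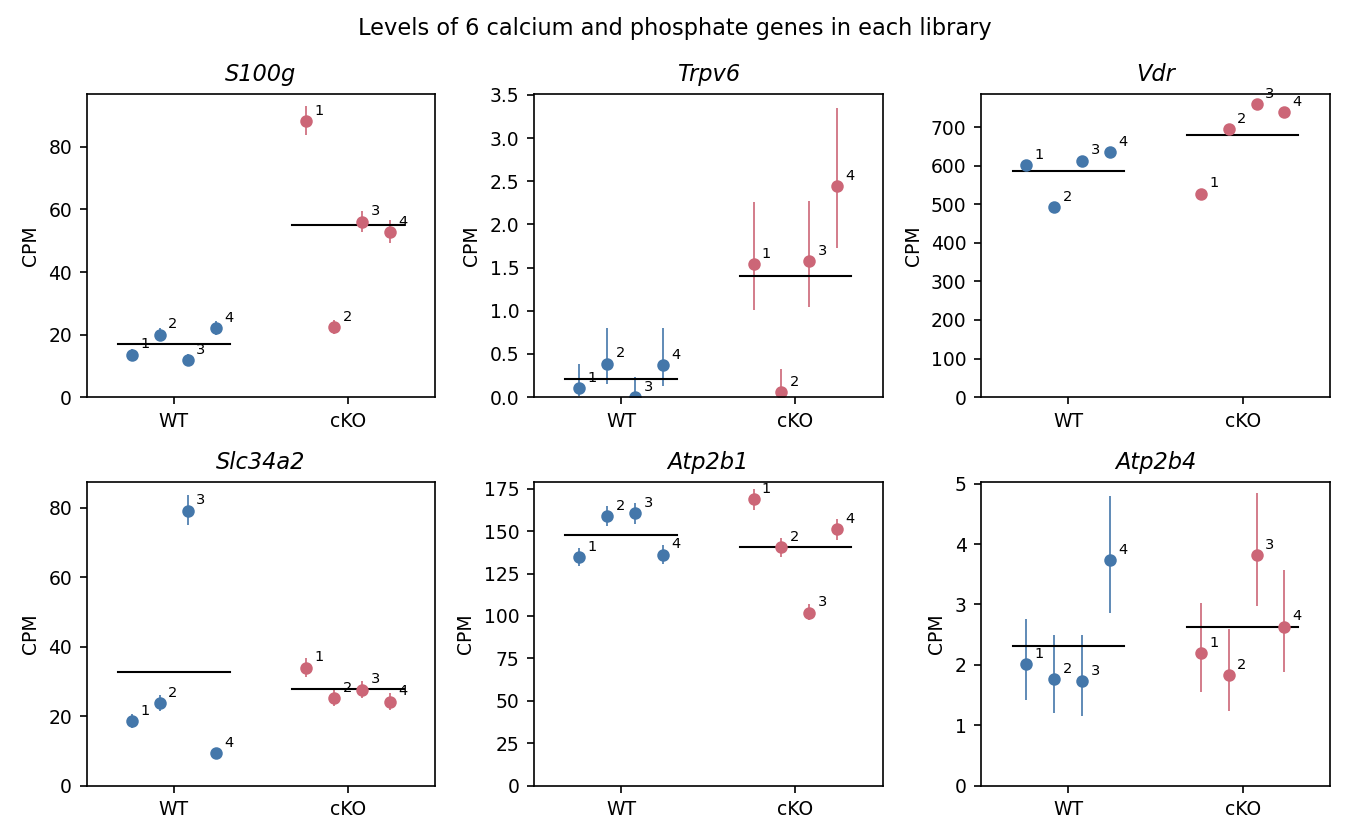
CPM of 6 members in each library (numbers beside points), with 95% Poisson counting intervals as bars and group means as lines, on axes that start at 0. In S100g and Trpv6 cKO libraries 1, 3 and 4 lie above all WT libraries and cKO library 2 does not stand apart from them. In Vdr cKO libraries 2, 3 and 4 lie above all WT libraries and cKO library 1 does not. All members shown except S100g overlap between groups.

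Calb1, the larger calbindin of kidney and neurons, had 1 read in 1 cKO library and 0 in the other 7. The defining markers of enteric neurons and glia were likewise low, between 1.24 and 3.84 CPM summed.

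Trpv6 encodes the apical calcium channel of the intestine (ENSMUSG00000029868, chromosome 6, 41620624 to 41636405, minus strand). It had 2, 7, 0 and 6 reads in WT libraries 1 to 4 and 26, 1, 28 and 38 reads in cKO libraries 1 to 4. As CPM these are 0.106, 0.387, 0 and 0.367 for WT, then 1.54, 0.0591, 1.57 and 2.44 for cKO. The same 3 cKO libraries that were high in S100g were high here, and the remaining one, cKO library 2, was inside the WT range. For cKO library 1 over WT library 2 the ratio was 3.98 (95% counting interval 1.68 to 10.9). The WT mean was 0.215 ± 0.192 CPM and the cKO mean 1.40 ± 0.988 CPM (SD over 4 libraries each), a ratio of 6.53, and 4.70 without both libraries 3. The difference did not exceed the spread between libraries in an exact two-sided permutation test on log2(CPM + 0.1) (p = 0.114, where 0.0286 is the smallest that 4 against 4 can give). Without a filter on low counts, edgeR gave a log2 fold change of 2.65 ± 0.99 (SE; adjusted p = 0.786, and 0.0286 unadjusted), and DESeq2 2.70 ± 0.88 (adjusted p = 0.369, and 0.00219 unadjusted). At least 3 of 4 cKO libraries lay above all WT libraries in 7.60% of all genes tested. Trpv5, the renal paralog that lies beside Trpv6 on chromosome 6, had 0 reads in WT and 3 in cKO, in libraries 3 and 4. Closely related paralogs can share reads, and the labels do not say how such reads were treated.

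Atp2b1 encodes the plasma membrane calcium pump that is taken as the main exit route of the enterocyte. WT libraries 1 to 4 were at 135, 159, 160 and 136 CPM, and cKO libraries 1 to 4 at 169, 140, 102 and 151 CPM. The groups overlapped, with cKO holding both the highest and the lowest library. The fold was 0.953 (95% interval 0.759 to 1.20; log2 fold change -0.070 ± 0.15, SE; edgeR adjusted p = 0.953). The sign turned without cKO library 3, at 0.056, and without both libraries 3, at 0.099. Atp2b4, a second pump of the family, had CPM of 2.01, 1.77, 1.73 and 3.73 across WT, and of 2.19, 1.83, 3.82 and 2.63 across cKO. WT library 4 and cKO library 3 were high, and these had the highest T cell marker scores of their groups, 0.82 and 1.15. The part of T cells in the Atp2b4 level was not tested. edgeR estimated 0.18 ± 0.33 on the log2 scale (SE; adjusted p = 0.945), turning to -0.057 without cKO library 3 and to -0.17 without both libraries 3.

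Vdr, the receptor (ENSMUSG00000022479, chromosome 15, 97854425 to 97910630, minus strand), was at 600, 492, 613 and 634 CPM in WT libraries 1 to 4. In cKO libraries 1 to 4 it was at 527, 694, 760 and 740 CPM. The values of cKO libraries 2, 3 and 4 lay above all of WT, but cKO library 1 was below 3 of the WT libraries. That library had the highest S100g, and cKO library 2, with the lowest S100g of its group, had 694 CPM of Vdr. The fold was 1.16 (95% interval 0.937 to 1.44; log2 fold change 0.22 ± 0.14, SE; edgeR adjusted p = 0.921), from 585 ± 63.4 to 680 ± 106 CPM (SD, n = 4 each). Without cKO library 1 the log2 fold change was 0.32 and without WT library 2 it was 0.14, both with an adjusted p of at least 0.814. Cyp24a1 had 2 reads in WT library 4 and 0 in the other 7 libraries, and 83 of its 3560 exonic bases overlap Pfdn4 on the opposite strand. In cKO library 4, which had the lowest total, 3 reads, the floor taken here for a count of 0, correspond to 0.193 CPM, and the upper end of the two-sided 95% Poisson interval of 0 reads to 0.237 CPM. Casr, the calcium-sensing receptor, had 28 reads in WT and 19 in cKO, at 0.398 ± 0.0946 and 0.286 ± 0.101 CPM (SD over 4 libraries each; exact two-sided permutation p = 0.171). Its libraries overlapped, and DESeq2 gave no adjusted p for it.

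Slc34a2 encodes the apical sodium-phosphate cotransporter of the intestine. It was at 18.6, 23.8, 79.2 and 9.36 CPM in WT libraries 1 to 4, and at 33.9, 25.3, 27.6 and 24.2 CPM in cKO libraries 1 to 4. The 4 cKO libraries lay close together, between the extremes set by WT libraries 3 and 4. The highest over the lowest library was 8.46-fold. Enterocyte scores, the median log2 deviation of 16 markers from their mean, were -0.44, -0.18, 0.82 and -0.27 in WT and 0.37, -0.18, 0.13 and -0.090 in cKO. The highest score and the highest Slc34a2 were in the same library in each group, but the lowest were not. Slc34a2 was lowest in WT library 4 and cKO library 4, and the score in WT library 1 and cKO library 2. The part of enterocyte content was not tested. The log2 fold change of Slc34a2 was -0.23 ± 0.60 (SE; edgeR adjusted p = 0.961), and it turned to 0.69 without WT library 3, also when cKO library 3 was left out with it.

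The wider pathway was read from 8 lists with 76 genes, of which 60 passed the filter. None was called by edgeR or DESeq2, and 0 of 60 had an unadjusted p under 0.05, against 3.90% of all genes tested. Point estimates were higher in cKO for 31 and lower for 29, with a median log2 fold change of 0.0013 beside 0.0022 over all genes. Without both libraries 3, 8 of 60 had an unadjusted p under 0.05, with 4 higher and 4 lower, against 5.05% of all genes, and 0 passed the adjusted threshold (0.0271% of all genes). These 8, named here after their values were seen, were Cyp3a25, Pdzk1, Cyp27a1 and Itpr2, with higher estimates, and Cldn23, Cldn3, S100a11 and Orai2, with lower ones. The largest of them in that fit was Cyp3a25, at 0.78 ± 0.19 (SE; edgeR adjusted p = 0.480). With all 8 libraries the sign was the opposite for Cyp3a25, at -0.56 ± 0.71, and for Pdzk1, at -0.32 ± 0.54 (SE). The others of these genes had the same sign in both fits.

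Among receptor partners and coactivators 7 genes were tested, with 4 higher and 3 lower. The retinoid X receptor Rxrb was at 0.11 ± 0.12 and the coactivator Ncoa1 at 0.11 ± 0.11 (log2 fold change ± SE). Vitamin D metabolism and uptake had 2 higher and 2 lower. Cyp2r1, a hydroxylase of vitamin D, had a WT mean of 1.31 ± 0.138 CPM and a cKO mean of 0.894 ± 0.571 CPM (SD over 4 libraries each). Cubn, the scaffold of the vitamin B12 and vitamin D carrier receptor, was at 17.1 to 20.9 CPM in WT libraries 1, 2 and 4 but 181 CPM in WT library 3, and at 13.7 to 48.4 CPM in cKO. Intestinal target genes had 4 higher and 3 lower. Cldn2, a claudin that forms a paracellular cation pore, had a log2 fold change of 0.25 ± 0.15 (SE), and WT library 3 was its lowest at 173 CPM. Cyp3a11, a drug-metabolizing enzyme, was at 364 CPM in WT library 3 and between 10.2 and 41.3 CPM in the other 7 libraries.

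Other calcium channels and store proteins had 8 higher and 6 lower of 14. The store channel Itpr2 was at 0.29 ± 0.15 and Orai3, a subunit of store-operated channels, at 0.35 ± 0.21 (log2 fold change ± SE). Of the other pumps and exchangers 3 of 10 were tested. The Golgi pump Atp2c1 ranged over 79.3 to 89.8 CPM for WT and over 64.2 to 77.9 CPM for cKO, with an estimate on the log2 scale of -0.20 ± 0.098 (SE; edgeR adjusted p = 0.921). It was the 1 gene of the 60 whose groups did not overlap, a share no higher than the 3.21% of all genes tested. Slc8b1, the mitochondrial exchanger, was at -0.046 ± 0.25, and the plasma membrane exchanger Slc8a1 did not pass the filter. Among the calcium-binding proteins, with 5 higher and 7 lower, S100a6 was at 0.42 ± 0.25 and the calmodulin gene Calm2 at -0.19 ± 0.12. Claudins had 3 higher and 4 lower. Cldn23 averaged 22.6 ± 4.08 CPM over the WT libraries and 15.6 ± 6.16 CPM over cKO (SD), and edgeR estimated -0.53 ± 0.24 on the log2 scale (SE; adjusted p = 0.921). Other phosphate genes had 5 higher and 2 lower, with the phosphate exporter Xpr1 at -0.23 ± 0.14 and the sodium-proton exchanger Slc9a3 at 0.41 ± 0.40.

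**Figure D3:**
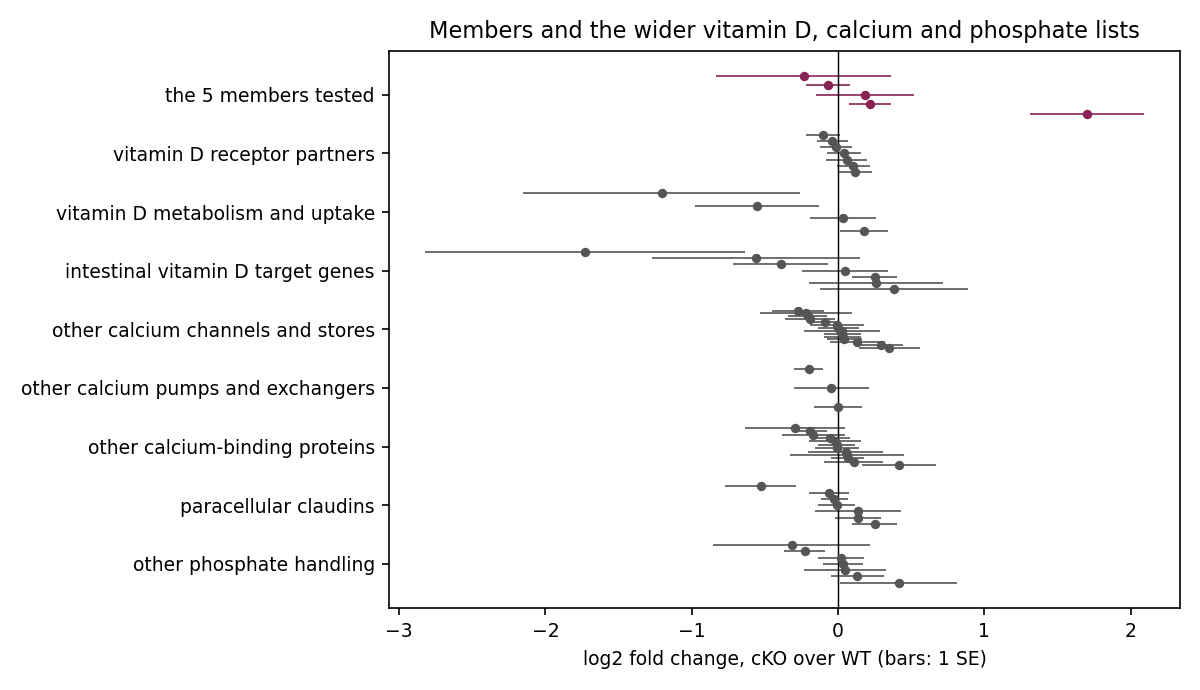
Log2 fold changes (cKO over WT, bars 1 SE) of the 5 members tested and of the tested genes of 8 wider lists, 1 point per gene (Cldn2 is in 2 lists). S100g, at 1.70, lies to the right of all other points, and the 60 wider genes lie on both sides of 0.

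Genes with the most similar profile to S100g were ranked by the root-mean-square difference of log2 levels, centred on the mean of the 8 libraries, among 12394 genes. This measure includes the difference between genotypes that the set was chosen for. Akp3, an intestinal alkaline phosphatase, was nearest (0.298 log2 units, against a median of 0.998). Its CPM was 47.0, 76.3, 48.5 and 49.6 across WT, then 225, 88.4, 155 and 151 across cKO. Its lowest cKO library was library 2, as for S100g, but Akp3 was picked for a like profile, so nothing is read from that match. Next were Il7r, a cytokine receptor of lymphocytes, Adamdec1, a secreted metalloprotease relative, Nr0b2, an orphan nuclear receptor that represses bile acid synthesis genes, and Tmem252, a transmembrane protein, at 0.370 to 0.538. Without both libraries 3, 2 of these 5 (Akp3 and Adamdec1) were again among the 5 nearest. Il7r and Adamdec1 were low, at 0.247 to 1.78 and 0.124 to 2.19 CPM, so their profiles rest on few reads. T cell scores, in library order, were -0.66, -0.98, 0.044 and 0.82 in WT and 0.63, -0.49, 1.15 and -0.44 in cKO. Libraries 1 and 3 of cKO were high in both S100g and T cell markers, while cKO library 4 was high in S100g with a low T cell score and WT library 4 was the reverse. All 11 tested T cell markers had higher estimates in cKO (median log2 fold change 0.41), and 0 had an unadjusted p under 0.05 in edgeR. Of 10 tested enteroendocrine markers 8 had higher estimates (median 0.32). Of these 10, 5 had an unadjusted p under 0.05 in edgeR, all higher, against 3.90% of all genes tested, and 0 passed the adjusted threshold. Among the other marker lists, Paneth and large intestine each had 2 genes with an unadjusted p under 0.05 and goblet had 1, all lower. Enteroendocrine sums were 470 to 630 CPM in WT and 617 to 736 CPM in cKO, highest in cKO library 2, where S100g was the lowest of its group. The part of T cells and of epithelial cell types in the S100g and Trpv6 levels was not tested. Genes near to Vdr were Lhpp, Med23, Cdc25b and Hes1, at 0.0624 to 0.0765 against a median of 0.306, and of these Lhpp was again among the 5 nearest without both libraries 3.

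The lowest S100g of each group was in WT library 3 and cKO library 2, as was the lowest Trpv6. Counting error does not settle the lowest WT library. For S100g the 95% counting interval was 10.3 to 13.7 CPM in WT library 3 and 12.0 to 15.4 CPM in WT library 1. Trpv6 had 0 reads in WT library 3, with an interval up to 0.228 CPM that overlapped those of the other WT libraries. Of 13 markers of the proximal small intestine, 2 had their lowest libraries in the same places (15.4%, against 4.45% of all genes tested). These were Pdx1, the transcription factor of the duodenum and pancreas, and Slc40a1, the basolateral iron exporter. No tested marker of the other cell type and region lists had its lowest libraries there. Pdx1 and Slc40a1 are pointed out after the values were seen. Pdx1 had CPM of 12.4, 9.67, 4.63 and 6.42 across WT, then 11.4, 4.37, 13.5 and 8.15 across cKO. Slc40a1 had CPM of 52.8, 64.3, 19.6 and 32.4 across WT, then 85.7, 16.7, 42.1 and 41.0 across cKO. Their log2 fold changes were 0.17 ± 0.37 and 0.13 ± 0.53 (SE), and WT libraries 1 and 2 were high in both while low in S100g. The other 11 markers of the proximal list did not have this order, and some had the opposite one among WT. Heph, Adh1 and Cyp2b10 were highest of WT in library 3, at 257, 440 and 186 CPM. The summed level of the list was also highest there, at 5458 CPM against 2129 to 2378 CPM in the other WT libraries, and 2681 to 3439 CPM in cKO. Its largest parts in WT library 3 were Lct, Apoa4 and Fabp1, at 1531, 1502 and 1047 CPM, which are also on the enterocyte list. The median score of the proximal list differed less, at 0.17 in WT library 3 and 0.20 in cKO library 1. The distal list was highest in WT library 3 by both measures, with a sum of 1432 CPM and a score of 0.55. Its score was -0.40 to -0.044 in the other WT libraries and -0.17 to 0.17 in cKO. S100g was lowest of all in WT library 3. The part of gut position in the S100g level was not tested.

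**Figure D4:**
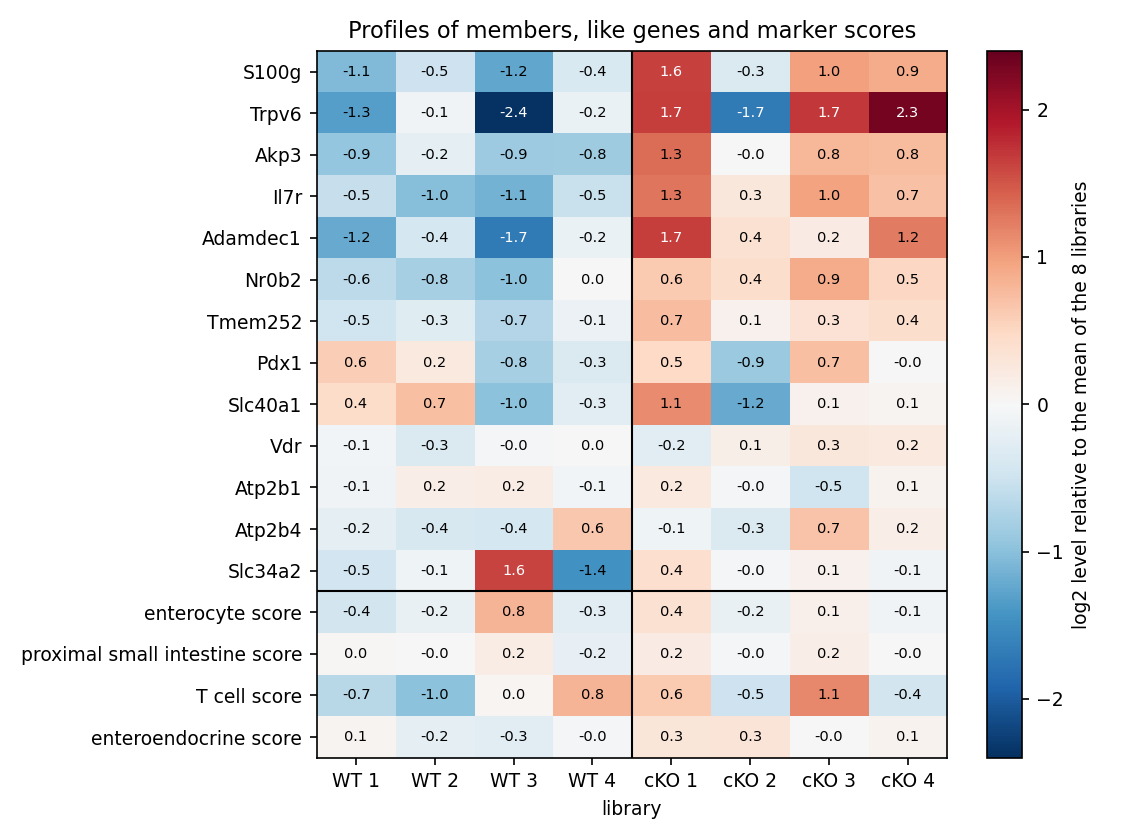
Log2 level relative to the mean of the 8 libraries (colour and printed value) for members, the 5 genes nearest to S100g, the markers Pdx1 and Slc40a1, and 4 marker list scores. S100g and Trpv6 share high values in cKO libraries 1, 3 and 4 and their lowest values of each group in WT library 3 and cKO library 2, while Slc34a2 is highest and enterocyte markers are highest in WT library 3. For S100g and Trpv6, the counting intervals of WT libraries 1 and 3 overlap.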

How the data were processed

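RNA of intestinal epithelial cells was sequenced in 8 libraries. Per the labels (series design text), reads from an Illumina NovaSeq instrument were processed with Hisat2 and Stringtie, with no version given. The sources used here do not give the genome build, counting program or strand setting. The authors deposited raw read counts in whole numbers and FPKM values for the same genes. Of 53620 identifiers found in GENCODE M21 (GRCm38), 97.1% have identical coordinates there, so that build is named. Each library's count and FPKM columns were matched by name to its label.

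Counts were tested with edgeR 4.0.16 in R 4.3.3 (quasi-likelihood F-test, robust, TMM factors, default filter, a model with genotype alone), adjusting p by Benjamini-Hochberg across every tested gene at 0.05. The step was checked on simulated data. SE is the size of a log2 fold change divided by the square root of F. Log2 CPM for scores and likeness used a prior count of 2. Intervals of single libraries and the 3-count limit cover counting error only. Library pairs differed by more than sampling noise (chi-square per degree of freedom at least 9.84). Alternatives used DESeq2 1.42.0, limma 3.58.1 and log2(FPKM + 0.1 or 1). Named genes were all members, up to 2 genes with the smallest p of each wider list, and the 5 nearest to S100g and to Vdr. Of these, 1 gene is not reported here. The members and lists were chosen with earlier results of these data known.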

Additional observations from a re-analysis of the deposited data

Results flagged for a closer look

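A single library stood far outside its group, by the share of the range that its gap takes, in 11 of the 78 groups of 4 checked. The cutoff gives about 1 in 20 for independent, normally distributed values. These were CPM values without a log, and some genes were picked for like profiles, so no excess is read from the count. Of the members, Atp2b4 stood out in WT library 4 (3.73 CPM, the others 1.73 to 2.01, a gap of 0.858 of the range). Among the wider lists, WT library 3 was high for Cubn (gap 0.977), Cyp3a11 (0.940) and Xpr1 (0.865, with 113 CPM and the others 79.7 to 84.2) and low for Cldn2 (0.888, with 173 CPM and the others 269 to 281). Akp3, the gene nearest to S100g, was high in WT library 2 (0.911). The genes nearest to Vdr that were low in cKO library 1 were Lhpp (gap 0.946) and Cdc25b (0.883). Of the regional markers, Gata4 had its outlying values in WT library 1 (0.832, 248 CPM with the others 233 to 235) and cKO library 3 (0.848, 321 CPM with the others 209 to 226), and Slc10a2 in cKO library 1 (0.984, 2.01 CPM with the others 0.945 to 0.963).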

How the results depend on the processing

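S100g was higher in cKO under all 19 alternatives, with a log2 fold change from 1.30 (limma with sample quality weights) to 1.97 (without cKO library 2), and 1.37 to 1.97 when 1 library was left out. The set was chosen for this difference in the same libraries, so nothing is read from the shared direction. The members other than S100g and the wider lists had 0 calls under all 19. Over all genes, 2 were called, and 10 without a filter, 8 with sample quality weights, 41 by DESeq2, 4 without both libraries 3, 0 on log2(FPKM + 1), 0 on log2(FPKM + 0.1) with a mean FPKM minimum of 0.5, and 0 to 3 without 1 library. The libraries share a replicate number only: deviations of same-numbered libraries correlated at -0.11, 0.11, 0.15 and 0.14, and 2 of 4 correlated best with their own number. With the replicate number as a block 0 genes were called, S100g was at 1.60 and Slc34a2 reversed to 0.20. Slc34a2 was also at 0.38 with quality weights, 0.19 on log2(FPKM + 0.1) with or without the minimum, 0.11 on log2(FPKM + 1) and 0.69 without both libraries 3, and from -0.54 to 0.69 without 1 library. Atp2b1 was at 0.013 with quality weights and 0.099 without both libraries 3, and from -0.17 to 0.056 without 1 library. Atp2b4 was at -0.17 without both libraries 3, and from -0.057 to 0.51 without 1 library. The cause of these changes was not tested. Vdr kept its direction under all 19, from 0.14 to 0.32 (adjusted p at least 0.567), and Trpv6 under the 9 that gave it a value, from 0.34 on log2(FPKM + 1), a scale that understates low genes, to 3.10 without WT library 2 (adjusted p from 0.369 to 0.992). Of the fits without 1 library, only those leaving out a WT library or cKO library 2 gave Trpv6 a value. Without cKO library 1, 3 or 4, each high in Trpv6, it did not pass the filter. Its kept direction therefore does not test dependence on those libraries. At 0 to 38 reads a library, depth limits what Trpv6 can show.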
